A study of Mus musculus with 2 samples.

Results

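The endothelin system consists here of 7 genes, taken by name from the count tables: the ligand genes Edn1, Edn2 and Edn3, the receptor genes Ednra and Ednrb, and the converting enzyme genes Ece1 and Ece2. They were all among the 32531 genes listed. The counts come from RNA pulled down with EGFP-tagged ribosomal protein Rpl10a from the cerebral cortex of adult, untreated ES2243 (Gdnf-EGFP/Rpl10a) mice, a line in which the tag follows the gene Gdnf. This is translating ribosome affinity purification (TRAP), and the submitters aimed it at pericytes, the cells that wrap capillaries. The only group held 2 libraries, IP1 and IP2, both immunopurified and both carrying the tag. The labels tie neither library to an animal or pool, so the spread between them may be technical, and no whole-cortex RNA was analysed here, so levels are given and not enrichments.

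Endothelins are short vasoactive peptides cut from longer precursors. Furin-like proteases release an inactive intermediate called big endothelin, and the endothelin converting enzymes then cut it to the active peptide. The receptor ETA, encoded by Ednra, prefers endothelin-1 and endothelin-2 and drives contraction of vascular smooth muscle and pericytes, while ETB, encoded by Ednrb, binds all endothelins and is known in the brain from astrocytes and endothelium. Endothelin-1 is classically a product of endothelial cells, and endothelin-3 with its receptor ETB is best known from the development of melanocytes and enteric neurons.

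The ligand genes differed most in read number, from 0 in both libraries to 18573 in IP2, so the RefSeq windows of the 250 bases before their annotated starts are shown first (GRCm38.p6, the assembly of mm10, plus strand, 5′ to 3′). Capitals mark a CCAAT box (CCAAT) or an E-box (CANNTG), searched on both strands.

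Edn1, chr13:42301226-42301475: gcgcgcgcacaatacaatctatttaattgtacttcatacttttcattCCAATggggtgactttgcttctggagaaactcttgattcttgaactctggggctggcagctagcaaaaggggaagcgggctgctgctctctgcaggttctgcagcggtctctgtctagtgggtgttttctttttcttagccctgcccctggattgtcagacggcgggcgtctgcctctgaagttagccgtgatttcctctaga

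Edn2, chr4:120160956-120161205: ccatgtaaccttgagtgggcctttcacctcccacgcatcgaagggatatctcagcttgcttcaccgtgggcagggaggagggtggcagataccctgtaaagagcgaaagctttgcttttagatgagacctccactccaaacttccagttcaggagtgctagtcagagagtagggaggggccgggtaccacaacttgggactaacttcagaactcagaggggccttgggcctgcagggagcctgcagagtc

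Edn3, chr2:174760369-174760618: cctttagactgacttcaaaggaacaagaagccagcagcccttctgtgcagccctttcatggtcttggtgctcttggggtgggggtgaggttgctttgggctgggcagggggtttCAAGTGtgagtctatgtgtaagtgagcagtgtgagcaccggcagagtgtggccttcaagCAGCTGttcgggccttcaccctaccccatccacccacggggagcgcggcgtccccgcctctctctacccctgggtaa

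Edn1 held a CCAAT box, Edn3 held 2 E-boxes, and Edn2 held neither. Of all 32851 windows of this length in the RefSeq table, 33.8% held a CCAAT box and 66.2% an E-box. The TATA box TATAAA (12.4% of all windows), the GATA motif AGATAA (9.99%), the AP-1 motif TGANTCA (6.75%) and the SOX motif ACAAAG (16.5%) were found in none of the windows of the 7 genes. The GC box GGGCGG (32.7% of windows) was absent from the windows of the ligands and receptors and present in windows of Ece1 and Ece2. Guanine and cytosine made up 50.4% of the Edn1 window, 55.6% of that of Edn2 and 59.2% of that of Edn3, beside a median of 52.4% over all windows. A match is a string of letters and not a measured binding site.

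Gene reads totalled 65200231 in IP1 and 72732502 in IP2, so 1 read was worth 0.0153 and 0.0137 CPM (counts scaled to the library's gene reads on the usual CPM scale), respectively. CPM is not divided by transcript length, and exon lengths were not used here. Values in CPM therefore compare a gene between the libraries, while any order of genes given below is an order of reads and not of transcripts. All 12 pericyte markers on a fixed list reached 10 CPM in both libraries, among them Rgs5 (4841 CPM, IP1, and 4061 CPM, IP2) and Vtn (396 and 585 CPM). So did all 9 neuronal markers, led by Snap25 (12770 and 10795 CPM), and 8 of 9 arterial smooth muscle markers, led by Acta2 (373 and 306 CPM). Also at this level were 8 of 8 perivascular fibroblast, 9 of 10 oligodendrocyte precursor, 8 of 10 astrocyte and 7 of 8 oligodendrocyte markers. Of 12 endothelial and 9 microglial markers, 1 and 0 were. Of all genes with 10 or more reads in total, 53.2% were. In bulk RNA of this kind, fewer cells of a type and less RNA per cell cannot be told apart, and the counts below cannot be assigned to a cell type.

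Edn3, which encodes endothelin-3, was the ligand gene that was read. It had 16831 reads in IP1 and 18573 in IP2, which is 258 and 255 CPM. Its level was thus 257 ± 1.97 CPM (SD, n = 2), a coefficient of variation of 0.77% between the libraries. By reads it was gene 693 of the table in IP1 and gene 719 in IP2. Edn3 took the most reads of the 7 genes in both libraries.

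Edn1, the gene of endothelin-1, had 8 reads in IP1 and 12 in IP2. Its level was 0.123 CPM in IP1 (exact Poisson 95% interval 0.053 to 0.242) and 0.165 CPM in IP2 (0.085 to 0.288). The intervals, which cover counting error only, overlapped over most of their length. Edn2, the gene of endothelin-2, had 0 reads in both libraries, which allows up to 0.046 CPM in IP1 and 0.041 CPM in IP2 at 3 counts. Edn3 therefore held 99.95% of ligand reads in IP1 (exact binomial 95% interval 99.91 to 99.98%) and 99.94% in IP2 (99.89 to 99.97%).

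The Edn3 reads lay in a gene that no other RefSeq gene overlaps (chromosome 2, 174760619 to 174784042). Its nearest coding neighbours with a row in the files were chosen by position, after the values of the 7 genes were known. Zfp831, a zinc finger gene that ends 49.8 kb before it, had 20.7 CPM (IP1) and 21.1 CPM (IP2). Gm14393, which begins 274 kb after it, had 1 read in IP1 and 0 in IP2. High counts at this place were thus limited to Edn3 among these 3 genes. Edn1 (chromosome 13, 42301476 to 42307990) was also free of overlaps, and Edn2 (chromosome 4, 120161206 to 120167360) overlaps 1 noncoding gene that has no row in the files.

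**Figure D1:**
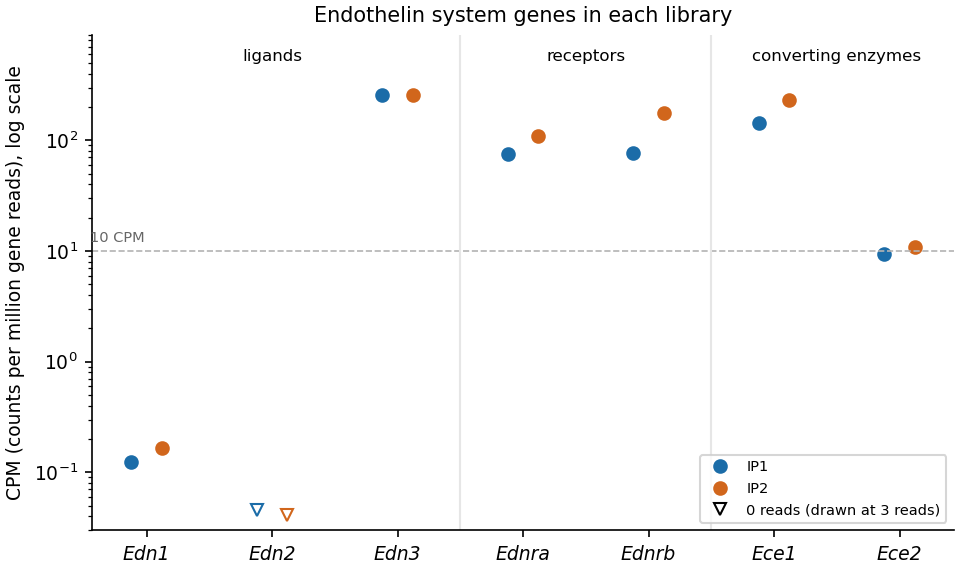
Level of each endothelin system gene in IP1 (blue) and IP2 (orange), in CPM on a log axis, with 1 point for each library; open triangles mark a gene with 0 reads, drawn at the level of 3 reads. Edn3 lies near 256 CPM in both libraries, Edn1 under 1 CPM, and Edn2 at 0 reads.

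Both receptor genes were read in both libraries, at more than 70 CPM. Ednra (chromosome 8, 77663029 to 77724452) had 4876 reads in IP1 and 7978 in IP2, which is 74.8 and 109.7 CPM (mean 92.2 ± 24.7 CPM, SD, n = 2). Ednrb (chromosome 14, 103814615 to 103844508) had 5062 and 12758 reads, which is 77.6 and 175 CPM (mean 127 ± 69.1 CPM, SD, n = 2). The receptor reads were close to evenly divided in IP1 and leaned to Ednrb in IP2. Ednra made up 49.1% of them in IP1 (exact binomial 95% interval 48.1 to 50.1%) and 38.5% in IP2 (37.8 to 39.1%), a mean of 43.8 ± 7.49% (SD, n = 2). As the transcripts may differ in length, these are shares of reads and do not give the ratio of the receptors' messages. Both receptor genes have RefSeq noncoding genes within or across their span, 3 for Ednra and 1 for Ednrb, none of which has a row in the files.

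Of the converting enzymes, Ece1 was read far more than Ece2. Ece1 (chromosome 4, 137862237 to 137965229), which encodes the main converting enzyme of vessels, had 9389 reads in IP1 and 16821 in IP2, which is 144 and 231 CPM (mean 188 ± 61.7 CPM, SD, n = 2). Ece2 (chromosome 16, 20629851 to 20645915), which encodes a related enzyme active at acidic pH and known from neural tissue, had 611 and 783 reads, which is 9.37 and 10.8 CPM (mean 10.1 ± 0.99 CPM, SD, n = 2). Ece1 held 93.9% of their joint reads in IP1 (exact binomial 95% interval 93.4 to 94.4%) and 95.6% in IP2 (95.2 to 95.9%). The span of Ece2 lies inside that of the read-through gene Eef1akmt4-ece2, which has no row in the files.

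The order of the genes by reads was Edn3, Ece1, Ednrb, Ednra, Ece2, Edn1 and Edn2 in both libraries. Edn3 and Ece1 did not overlap between libraries (255 to 258 CPM against 144 to 231 CPM). Ece1 and Ednrb overlapped, as did Ednrb and Ednra, so these neighbours in the order were not separated by the spread between the libraries. Ece2 and Edn1 were each apart from their neighbours in both libraries.

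The 7 genes together took 564 CPM (IP1) and 783 CPM (IP2). The difference came from Ednrb, Ece1 and Ednra, since Edn3 differed by under 3 CPM. The share of Edn3 in the joint reads was 45.8% in IP1 and 32.6% in IP2, and that of Ednrb 13.8% and 22.4%. Ece1 took 25.5% and 29.5%, and Ednra 13.3% and 14.0%.

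**Figure D2:**
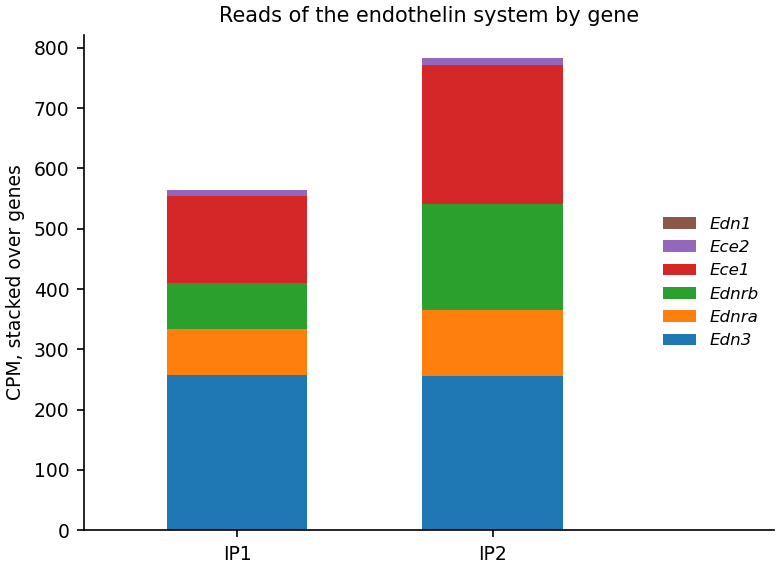
CPM of the endothelin system genes stacked for IP1 and IP2, 1 bar for each library and 1 colour for each gene; Edn1 is too low to be seen and Edn2 had no reads. The Edn3 block has nearly the same height in both bars (258 and 255 CPM), and the bars reach 564 and 783 CPM.

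Ratios between the libraries were taken for the 17306 genes with 10 or more reads in total, which include 6 of the 7 genes and not Edn2. With 1 group there is no contrast between conditions, so no p-value is given for these ratios, and the intervals of ratios cover counting error only. A gene counted as past the fold at a ratio of 2 or more. In the IP2 direction 1 of the 6 genes was past the fold, Ednrb, against 7.15% of all genes compared. In the IP1 direction 0 were, against 11.3% of all genes. At a fold of 1.5 the counts were 2 (Ednrb and Ece1) towards IP2, against 13.7% of all genes, and 0 towards IP1, against 18.1%.

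Ednrb was 2.26-fold higher in IP2 (interval 2.19 to 2.33). Only 0.42% of the 9656 genes averaging 10 CPM or more had a larger ratio towards IP2. Ece1 was 1.61-fold higher (1.57 to 1.65), and 4.42% of those genes had a larger ratio. Ednra was 1.47-fold higher (1.42 to 1.52), and 7.33% had a larger ratio. These ratios exceed counting error, but a single group of 2 libraries gives no measure of how often they would recur.

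Ece2 was 1.15-fold higher in IP2 (1.03 to 1.28), and 53.0% of those genes differed more between the libraries in either direction. Edn3 had a ratio of 0.989 (0.969 to 1.01), and 96.4% differed more. The direction of the Edn3 ratio depended on the scaling, with a log2 ratio of -0.02 on total counts, 0.04 on TMM library sizes and 0.04 on DESeq2 size factors. Edn1 had a ratio of 1.34 with an interval from 0.505 to 3.79, so no difference was detectable at 20 reads in total. Over the 6 genes the median log2 ratio was 0.48 and 5 were above 0, beside a median of -0.06 and 44.7% above 0 over all genes compared.

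**Figure D3:**
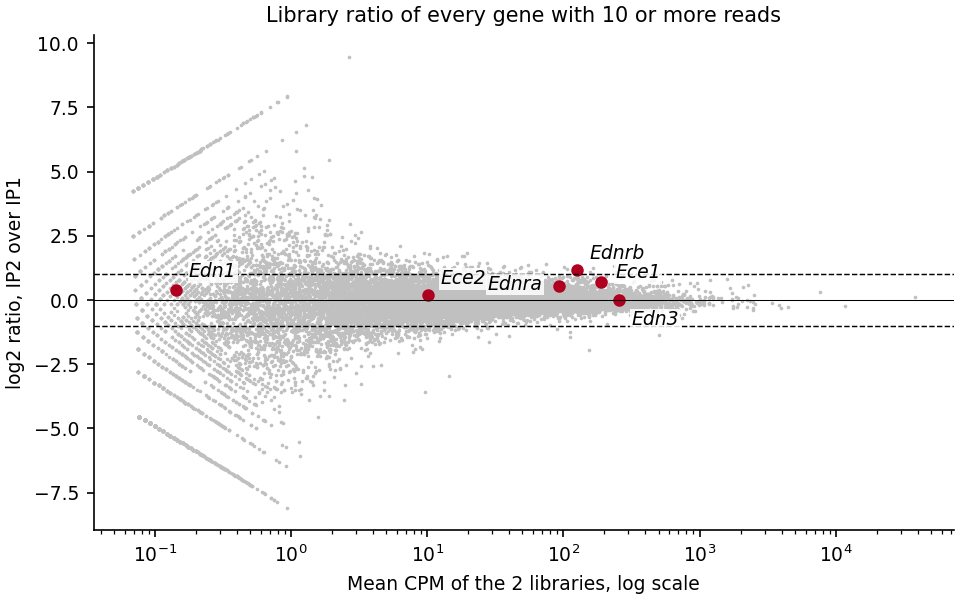
log2 ratio of IP2 over IP1 against the mean CPM of both libraries (log axis) for each of the 17306 genes with 10 or more reads, in grey, with the endothelin system genes in red and dashed lines at a ratio of 2 either way. Ednrb lies above the upper line (log2 ratio 1.18), Ece1 and Ednra lie below it, and Edn3 lies at 0.

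Of the marker genes of cell types known to use endothelin receptors, some also had unequal levels in the libraries, and their part in the ratios above was not tested. The 10 astrocyte markers summed to 1986 CPM (IP1) and 3035 CPM (IP2), with a median log2 ratio of 0.60 and 8 of 10 above 0. Past the fold towards IP2 were 3 (Aqp4, Slc1a3 and Fgfr3), against 7.15% of all genes compared. All 3 averaged 10 CPM or more, and of the 9656 genes at that level 94 were past it. Most of the astrocyte sum, and of its difference between the libraries, came from Slc1a2, the main glutamate transporter of astrocytes (1158 and 2028 CPM). The glycolytic enzyme gene Aldoc was at 433 and 410 CPM. The 10 oligodendrocyte precursor markers summed to 2396 and 3095 CPM (median log2 ratio 0.46, 8 of 10 above 0), and 1 of them, Gpr17, was past the fold. Among them Olig1, a lineage transcription factor, was at 985 and 913 CPM and the receptor gene Pdgfra at 326 and 632 CPM. No marker of either list was at 0 reads.

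Mural and fibroblast markers were mixed. The 12 pericyte markers summed to 6697 CPM (IP1) and 6508 CPM (IP2), while their median log2 ratio was 0.42 with 7 of 12 above 0. The sum is dominated by Rgs5, which was lower in IP2. Notch3 (59.7 and 144 CPM) was the 1 pericyte marker past the fold towards IP2, against 7.15% of all genes compared. Of the 9656 genes averaging 10 CPM or more, 94 were. The 9 arterial smooth muscle markers summed to 786 and 712 CPM (median log2 ratio 0.02), with Myh11, their myosin heavy chain, at 206 and 207 CPM. The 8 perivascular fibroblast markers summed to 2998 and 4147 CPM (median 0.42, 8 of 8 above 0), led by Apod (1712 and 2446 CPM) and Igf2 (831 and 1133 CPM).

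Endothelial markers, from the cell type that classically makes endothelin-1, were low. The 12 summed to 78.4 CPM (IP1) and 80.9 CPM (IP2), and only Emcn (42.1 and 33.3 CPM) reached 10 CPM in both, with Esam next at 9.54 and 15.4 CPM. Their median log2 ratio was 0.69, the highest of the 9 cell type lists, though their summed CPM was nearly equal. Of the 11 compared, 7 were above 0, against 44.7% of all genes compared. Past the fold were 3 towards IP2 (7.15% of all genes) and 1 towards IP1 (11.3%), at low counts. They were Pecam1 (12 and 36 reads), Tie1 (19 and 53) and Egfl7 (46 and 148) towards IP2, and Tek (219 and 73) towards IP1. Cldn5, a defining tight junction gene, had 5 reads in IP1 and 0 in IP2, beside 8 and 12 reads for Edn1. Ece1 had more reads than all 12 endothelial markers together in both libraries (144 against 78.4 CPM in IP1, and 231 against 80.9 CPM in IP2). These reads are not divided by transcript length, and the cells that gave the Edn1 and Ece1 reads were not tested. Microglial markers summed to 29.5 and 32.9 CPM, with Tmem119 (9.46 and 13.6 CPM) and P2ry12 (6.66 and 5.72 CPM) highest and none at 0 in either library.

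Neuronal markers summed to 15988 CPM (IP1) and 13824 CPM (IP2) (median log2 ratio -0.09), with the kinase gene Camk2a at 1156 and 1008 CPM. The 8 oligodendrocyte markers summed to 1583 and 1538 CPM (median 0.01), with Cnp at 477 and 432 CPM and the myelin gene Mbp at 460 and 397 CPM. The neuronal markers ranged from -0.31 to 0.09 in log2 ratio, and the ratio of Edn3 was -0.02 on the same scale. The Edn3 ratio lay within the range of every cell type list except the perivascular fibroblast markers (0.03 to 0.92). Which cells the Edn3 reads came from was not tested.

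Among the genes of the fixed pathway and marker lists, those nearest to each endothelin gene were taken by distance in log2(CPM + 0.5) over the 2 libraries. Nearest to Edn3 were Rbfox3, a neuronal marker (268 and 277 CPM), and the perivascular fibroblast marker Dcn, a proteoglycan gene (206 and 236 CPM). Nearest to Ednra were Anpep, a pericyte marker (67.8 and 107 CPM), and the calcium channel gene Cacna1c (75.0 and 94.9 CPM). Nearest to Ednrb were Cspg4 (74.0 and 140 CPM), listed for oligodendrocyte precursors and also found in pericytes, and the astrocyte marker Slc1a3 (99.4 and 212 CPM). Nearest to Ece1 were Cspg5, an oligodendrocyte precursor marker (156 and 240 CPM), and Atp13a5, a pericyte marker (141 and 209 CPM). Likeness over 2 values is a description of level and ratio, and it does not show that genes share cells.

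Genes that handle endothelin precursors and break the peptides down were mostly low. Of 11 such genes, 2 reached 10 CPM in both libraries, Ctsa and Mme. Among genes with 10 or more reads in total these were 2 of 9, while 53.2% of all genes compared did so. Ctsa, a lysosomal carboxypeptidase that can inactivate endothelin-1, had 33.3 CPM (IP1) and 41.0 CPM (IP2). Mme, or neprilysin, which degrades endothelins, was at 11.0 and 13.1 CPM. Furin, a protease that cuts the precursor, was at 9.48 and 14.1 CPM.

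Of the 9 genes of this list with 10 or more reads, 2 were past the fold towards IP2 (7.15% of all genes compared) and 1 towards IP1 (11.3%). They were Ecel1 (4.52 and 9.23 CPM) and Phex (10 and 26 reads) towards IP2 and Mmel1 (11 and 4 reads) towards IP1. These are metallopeptidases of the same family as the converting enzymes. Kel, whose product can cut big endothelin-3, and the mast cell chymase gene Cma1 had no read in either library. Over the 9 genes of the list with 10 or more reads the median was 7.01 CPM (IP1) and 8.59 CPM (IP2), beside 14.3 and 13.8 CPM over all genes compared.

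Most genes that carry the receptor signal were read at 10 CPM or more in both libraries, as were 53.2% of all genes compared. All 8 G protein alpha subunit genes were, led by Gnas (2381 and 2303 CPM), Gnai1 (542 and 497 CPM) and Gnaq (533 and 477 CPM), the last of which couples endothelin receptors to phospholipase C. Of 11 genes for phospholipase C, IP3 receptors and protein kinase C, 8 were, and Plcb2, Prkcd and Itpr3 were lower. The highest were Prkcb (1907 and 1614 CPM) and Prkce (433 and 461 CPM), both protein kinase C genes, and Itpr1 (297 and 388 CPM), a calcium release channel. None of these 19 genes was past the fold. Of the 9656 genes averaging 10 CPM or more, 94 were past it towards IP2 and 53 towards IP1. Plcb2, Prkcd and Itpr3 averaged less and are not among the 9656, and Plcb2 came close to the fold (log2 ratio -0.985). The median log2 ratios of the lists were -0.09 and -0.19.

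Of 6 receptor kinase and arrestin genes, which switch receptors off, 5 reached 10 CPM in both libraries and 0 were past the fold (median log2 ratio 0.02). Arrb1 was at 219 and 204 CPM, Adrbk2, now named Grk3, at 55.7 and 56.0 CPM and Grk5 at 47.0 and 52.6 CPM.

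Genes for calcium entry and chloride channels were the pathway list with the highest median log2 ratio, 0.75, and 6 of 6 had more CPM in IP2. The voltage-gated calcium channel gene Cacna1d (16.7 and 39.3 CPM) and the cation channel gene Trpc6 (1.55 and 4.81 CPM) were past the fold. These are 2 of 6, against 7.15% of all genes compared. Cacna1d averaged more than 10 CPM, a level at which 94 of 9656 genes were past the fold towards IP2. Cacna1c, which encodes the main calcium channel of vascular smooth muscle, was at 75.0 and 94.9 CPM. Ano1, a calcium-activated chloride channel gene, was at 59.8 and 85.4 CPM. Ednra, Ednrb and Ece1 shared the direction of this list, unlike most genes of the G protein list, of which 3 of 8 genes were above 0. This direction was not particular to the channel genes. It was also that of most perivascular fibroblast (8 of 8), astrocyte (8 of 10) and oligodendrocyte precursor markers (8 of 10). Smaller majorities were above 0 among pericyte (7 of 12), endothelial (7 of 11), arterial smooth muscle (6 of 9) and microglial markers (5 of 9). The same was true of precursor processing (6 of 9) and receptor kinase and arrestin genes (4 of 6). Oligodendrocyte (4 of 8) and neuronal markers (4 of 9) and the phospholipase C list (3 of 11) had no such majority. The differences between the lists were not tested.

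**Figure D4:**
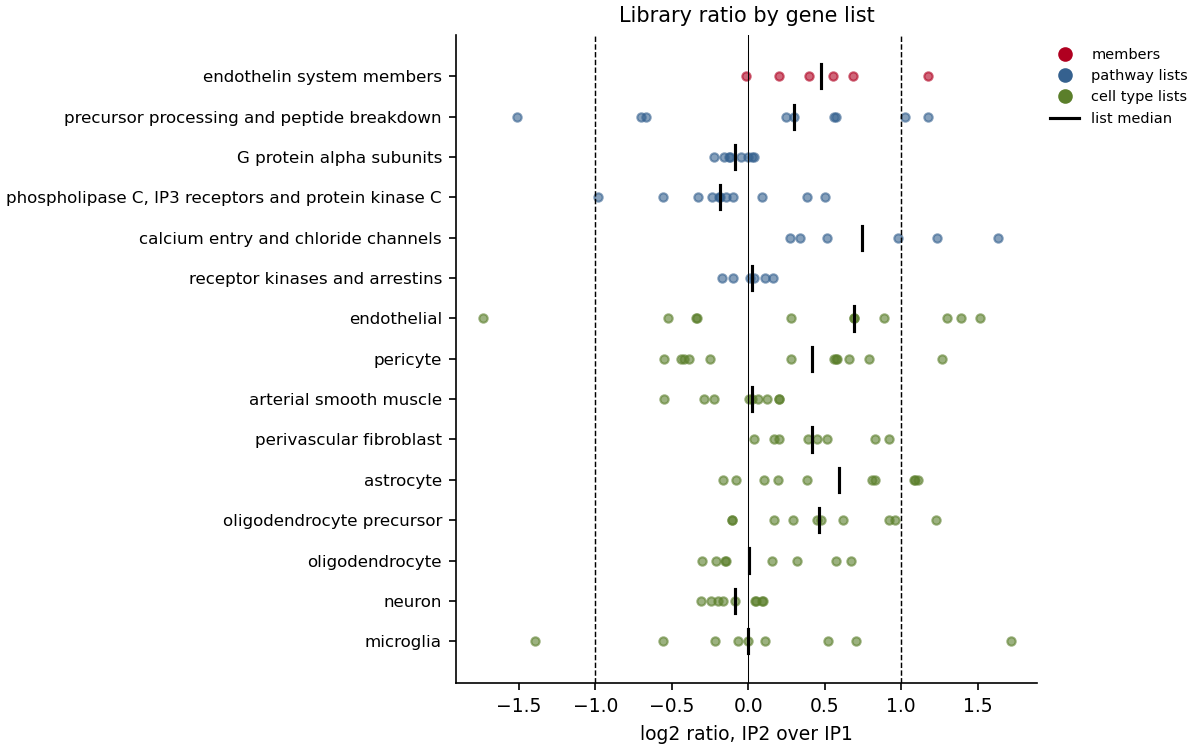
log2 ratio of IP2 over IP1 for each gene of the endothelin system (red), of 5 pathway lists (blue) and of 9 cell type lists (green), with 1 point for each gene with 10 or more reads, a black bar at the list median and dashed lines at a ratio of 2 either way. Astrocyte (median 0.60) and channel genes (0.75) lie mostly right of 0, and G protein and neuronal genes (both -0.09) lie around it.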

How the data were processed

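The deposited values are raw counts per gene symbol, made with STAR 2.0.0e (alignment to mm10) and HTSeq (counting), per the submitters' processing notes. The annotation is not given in the sources used here, nor is the strand setting. It is therefore not known whether reads of antisense genes were told apart. Summary rows and the row named unknown (1 and 0 reads) were left out. Reads aligned to several places (31.2% and 31.5%) were not assigned to genes. PCR copies were not marked, so a read is not always a separate molecule.

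Counts were divided by the library's gene total. Ratios were taken for genes with 10 or more counts. Folds are plain CPM ratios, and log2 ratios and the counts past the fold used a prior of 0.5 counts. Floors are 3 counts, and intervals are exact at 95% and cover counting error only. Alternatives used edgeR 4.0.16 (TMM), DESeq2 1.42.0 (size factors) and an exact binomial test. The ratio calculation was run on simulated counts that held counting error only, with large changes planted in genes of 10 CPM or more. Such a run checks the arithmetic and does not model the spread between libraries. Python 3.11.15 and R 4.3.3 were used. Coordinates and windows are from RefSeq (GRCm38.p6). All 7 genes matched, and 2 listed symbols matched through older names.

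Members and lists were chosen with earlier results of these data known. Besides the 7 genes, the rule named the 3 highest of each pathway list and the 2 highest of each cell type list, with those past the fold (pathway) or at 0 counts, and the 2 nearest listed genes. Cldn5, Pecam1, Tie1, Egfl7, Tek, Aqp4, Fgfr3, Gpr17, Notch3, Plcb2, Prkcd, Itpr3 and the neighbours were chosen with their values known. The planned order per length was not run, because exon lengths were not used here. Some planned genes are not reported here.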

Additional observations from a re-analysis of the deposited data

How the results depend on the processing

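With TMM library sizes, DESeq2 size factors, totals without the 10 most abundant genes, a prior of 2 counts or no minimum count, Ednrb was the 1 gene of the system past a fold of 2, and 0 were past it towards IP1. The same held among genes averaging 10 CPM or more. It also held with an adjusted exact binomial p added to the fold, a setting that adds no support. That test covers counting error only, and at 5062 and 12758 reads it could hardly have removed Ednrb. At a fold of 1.5, 2 genes of the system were past it towards IP2. Over all genes, 1237 were past the fold towards IP2 and 1960 towards IP1. Both counts depended on the gene filter and the fold. Among genes averaging 10 CPM or more they were 94 and 53, and at a fold of 1.5 they were 2378 and 3138. With no minimum count 3336 were past the fold towards IP1. The Ednra share of receptor reads was 38.5% without IP1 and 49.1% without IP2. TMM and DESeq2 scaling moved the median of all genes by 0.05 and 0.06 on the log2 scale and reversed the sign of the Edn3 ratio, which was under 0.05 in size each time. The list of endothelial markers at 10 CPM had 1 member in both libraries and 4 in IP2 alone. No paired analysis was possible because there is a single group. Per-length values and the receptor balance per kb were not run. Depth limits Edn1 and Edn2, whose levels rest on 20 and 0 reads.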
